A study of Danio rerio with 121 samples.

Results

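Collagens are secreted proteins of the extracellular matrix, and each collagen molecule is built from alpha chains that are wound around each other. The 53 collagen chain genes described here are all genes of the deposited zebrafish table whose symbol reads col, a type number, a and a chain number, and they make up 53 of 24801 genes. The study, on craniofacial development, measured whole zebrafish embryos of the RW strain by Lasy-Seq, a method that sequences the 3′ end of messenger RNA, and the libraries analysed here cover 9 stages. Stages up to 20 ss are named by the number of somites (ss), the blocks of body-wall tissue laid down along the trunk, and later ones by hours post fertilization (hpf).

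The libraries fall into 3 kinds. Set 1, dated 2020 in the deposited sample table, holds 52 libraries with no suffix, called plain here. They are 4 libraries from 15 ss and 8 each from 6 and 20 ss and from 24, 48, 72 and 96 hpf. It also holds 29 libraries marked S, 5 from 15 ss and 8 each from 6 ss, 10 ss and 96 hpf. Set 2, dated 2021, holds 40 libraries, 8 each from 20 ss, 24 hpf, 32 hpf, 48 hpf and 72 hpf. The labels give no treatment or mutant allele for any library, and what S stands for is not given in the sources used here. They describe a library as 1 embryo, whereas the study's methods describe pooled embryos and the sample table of set 1 gives a used number between 1 and 50 per group. The p-values below therefore measure the spread between libraries, which may hold 1 or more embryos. The used number was 50 in the plain groups except at 20 ss (10) and 96 hpf (5). In the S groups it was 25 at 6 ss, 20 at 10 ss, 15 at 15 ss and 1 at 96 hpf. Where 2 stages differ in it, stage and used number cannot be told apart. This holds for every comparison with 96 hpf and for those among S stages. Total counts per library ran from 866854 to 21646478 with a median of 3129763, and 1 library, replicate 4 of the S group at 96 hpf, lay far below that median, at the lowest of these totals.

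Fibrillar collagens (types I, V, XXIV and XXVII here) assemble into the banded fibrils of skin, tendon and bone. The cartilage group holds type II and its partners XI and IX, which form the thin fibrils of cartilage and of the sheath around the notochord, the embryonic rod that supports the trunk, and type X of hypertrophic cartilage, which zebrafish bone-forming cells also express. Basement membrane collagens (IV, VII, XV and XVIII) lie beneath epithelia and around muscle. FACIT collagens (XII, XIV, XVI, XIX, XXI and XXII here) attach to the surface of fibrils, beaded filament collagen is type VI, short chain collagen is type VIII, and the transmembrane type XVII anchors skin cells to their basement membrane. By these types, 10 genes were fibrillar, 11 cartilage, 11 basement membrane, 8 FACIT, 4 beaded filament, 3 short chain, 2 transmembrane and 4 other (type XXVIII).

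The labels were compared with stage and tissue markers. The summed level of 6 presomitic mesoderm markers had a median of 644 CPM (counts per 1e+06 counts, scaled between libraries by the trimmed mean of M-values, TMM) in the plain libraries at 6 ss and of 5.62 CPM at 96 hpf. By contrast, 4 skeletal muscle markers had medians of 76.7 and 12216 CPM and 10 cartilage markers medians of 15.4 and 597 CPM. At 15 ss the plain libraries held more presomitic and less muscle marker signal than the S libraries. The presomitic sums were 442 to 546 CPM against 308 to 382 CPM, and the muscle sums 98.4 to 119.8 CPM against 184 to 232 CPM. The 15 ss plain muscle range overlapped that of the 10 ss S libraries, 87.1 to 142 CPM.

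The share of a library's counts that fell to collagen chains grew from 6 ss to 72 hpf. In the plain libraries it was 0.0591% ± 0.0038 (SD, n = 8) at 6 ss, 0.0910% ± 0.0050 (n = 4) at 15 ss, 0.152% ± 0.0057 (n = 8) at 20 ss and 0.286% ± 0.027 (n = 8) at 24 hpf. It then reached 0.606% ± 0.019 at 48 hpf, 0.796% ± 0.020 at 72 hpf and 0.783% ± 0.056 at 96 hpf (n = 8 each). Set 2 (n = 8 each) gave 0.127% ± 0.035 at 20 ss and 0.242% ± 0.058 at 24 hpf. Its later stages gave 0.356% ± 0.054 at 32 hpf, then 0.591% ± 0.058 and 0.743% ± 0.061 at 48 and 72 hpf. Of the 10 steps between stages of one kind of library, 9 passed a two-sided exact permutation test with Benjamini-Hochberg adjustment over the 10 (adjusted p from 0.000311 to 0.00224), each with a higher share at the later stage. The exception was 72 to 96 hpf (exact permutation p = 0.573). The groups of 8 of these 9 steps did not overlap, and those of set 2 at 48 and 72 hpf did. In the S libraries the share was 0.0721% ± 0.0071 at 6 ss and 0.534% ± 0.081 at 96 hpf (n = 8 each), and the highest S library at 96 hpf (0.630%) was below the lowest plain one (0.687%). In whole embryos, fewer cells of a type and less RNA per cell cannot be told apart.

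**Figure D1:**
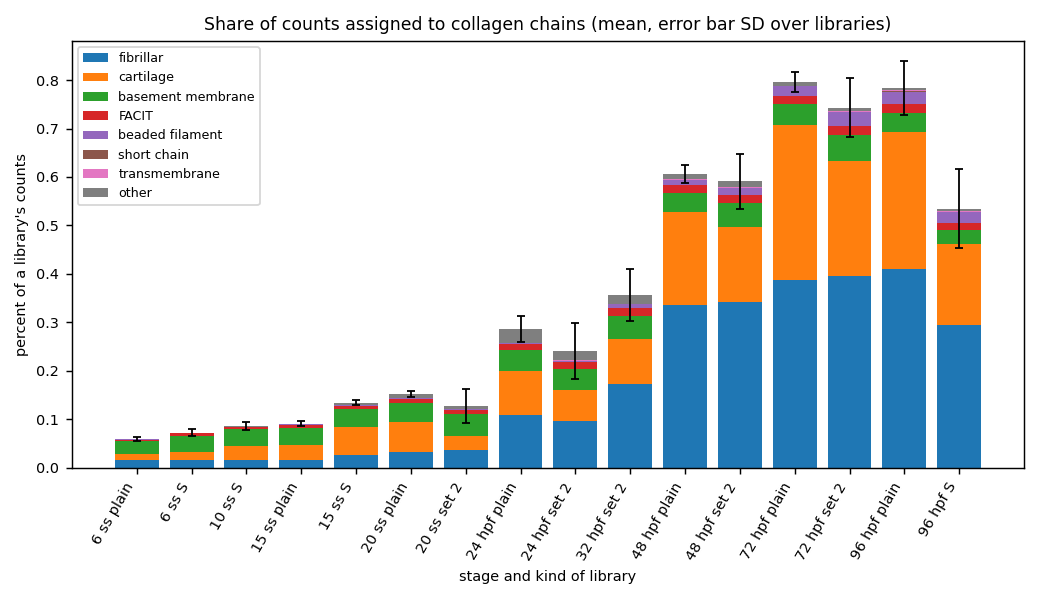
Percent of a library's counts assigned to each type of collagen chain, stacked, by stage and kind of library (bars are means over libraries, error bars the SD of the total). The total rises from 0.0591% at 6 ss to 0.796% at 72 hpf in the plain libraries. In these libraries, fibrillar and cartilage chains make up most of it at 20 ss (21.0% and 41.4% of the collagen counts) and at each later stage.

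The make-up of the collagen counts shifted as they grew. Basement membrane chains held 45.4% ± 3.0 (SD, n = 8) of the collagen counts of the plain libraries at 6 ss and 4.99% ± 0.35 at 96 hpf, and fibrillar chains went from 25.0% ± 4.0 to 52.3% ± 1.1. The share of cartilage chains in the plain libraries grew from 21.4% ± 2.6 (6 ss) through 33.8% (15 ss) to its highest value, 41.4% ± 2.6 (20 ss). It then dropped to 32.0% ± 3.7 (24 hpf) and 31.7% ± 0.93 (48 hpf). Afterwards it climbed again to 40.2% (72 hpf), and the 96 hpf group held 36.1% ± 0.96. Set 2 did not show this peak at 20 ss, where the share was at its lowest, 21.0% ± 12.0 (n = 8). Its later groups held 25.4% (24 hpf), 26.5% (32 hpf), 26.1% (48 hpf) and 31.8% (72 hpf). The 4 type XXVIII genes peaked at 9.81% ± 0.68 at 24 hpf, nearly all of it from col28a2a. These shares are of counts, which were not scaled for transcript length. Over all libraries col1a1a had the most counts of any member, 441255.

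For each gene, steps between stages were tested with the edgeR quasi-likelihood model, in which a gene was called when its Benjamini-Hochberg adjusted p was under 0.05 and its log2 fold change at least 1 in size. Of the 53 members 52 were tested, since col28a1b had counts in only 6 libraries. From 6 to 15 ss, 8 members rose in the plain libraries (1.43% of all 21638 genes tested rose and 0.166% fell) and 13 in the S libraries (3.23% of all genes rose and 0.8% fell). From 15 ss to 24 hpf 28 members rose (8.69% of all genes rose and 3.05% fell). From 24 to 48 hpf 22 rose in the plain libraries (8.97% of all genes) and 21 in set 2 (11.1% of all genes), and 2 (7.14% of all genes fell) and 3 (7.33%) fell. From 48 to 72 hpf 2 rose in the plain libraries (2.31% of all genes rose and 1.19% fell) and 5 in set 2 (7.09%), where 2 fell (4.52%). In the 4 steps from 6 to 15 ss (plain and S), 15 ss to 24 hpf and 48 to 72 hpf (plain), 0 members fell by edgeR and 0 by DESeq2. Members lower at an unadjusted p under 0.05 in these steps numbered 2, 1, 1 and 3. Between 72 and 96 hpf 0 members were called by edgeR (1.83% of all genes rose and 0.384% fell), 0 were called by DESeq2, and 10 had an unadjusted p under 0.05, of which 8 were lower at 96 hpf.

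Across the whole course from 6 ss to 96 hpf, 42 members rose in the plain libraries (28.3% of all genes) and 38 in the S libraries (26.8%), 38 of them in both. In the S libraries 1 member fell (17.6% of all genes did), and in the plain libraries 0 did by edgeR or DESeq2 (17.4% of all genes), with 0 lower at an unadjusted p under 0.05. The median log2 fold change of the tested members was 4.21 in the plain and 3.23 in the S libraries against 0.25 and 0.21 over all genes tested. With members that had no count in a group set at the bound that 3 counts allow, the member medians were 3.66 and 3.21. For the single steps the member medians were 0.48 and 0.58 from 6 to 15 ss (0.34 and 0.51 at the bound) and 2.04 from 15 ss to 24 hpf (1.47 at the bound). They were then 1.14 in both sets from 24 to 48 hpf, 0.15 and 0.13 from 48 to 72 hpf and 0.01 from 72 to 96 hpf, while the medians of all genes lay between -0.03 and 0.10. Scaling by library totals in place of TMM shifted the log2 fold changes of all genes by a median of -0.29 from 15 ss to 24 hpf. The median shift was -0.11 from 24 to 48 hpf in the plain libraries, 0.20 and 0.11 from 48 to 72 hpf, and -0.17 and -0.23 from 6 ss to 96 hpf. By edgeR, calls were made in at least 1 step for 47 members. The matching share of all genes was not counted, and over the whole course alone 28.3% of them rose and 17.4% fell in the plain libraries. The 6 members without a call were col18a1a, col4a6, col8a1a, col21a1, col27a1b and col28a1b, and of these col4a6 and col8a1a were not called under any alternative either.

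**Figure D2:**
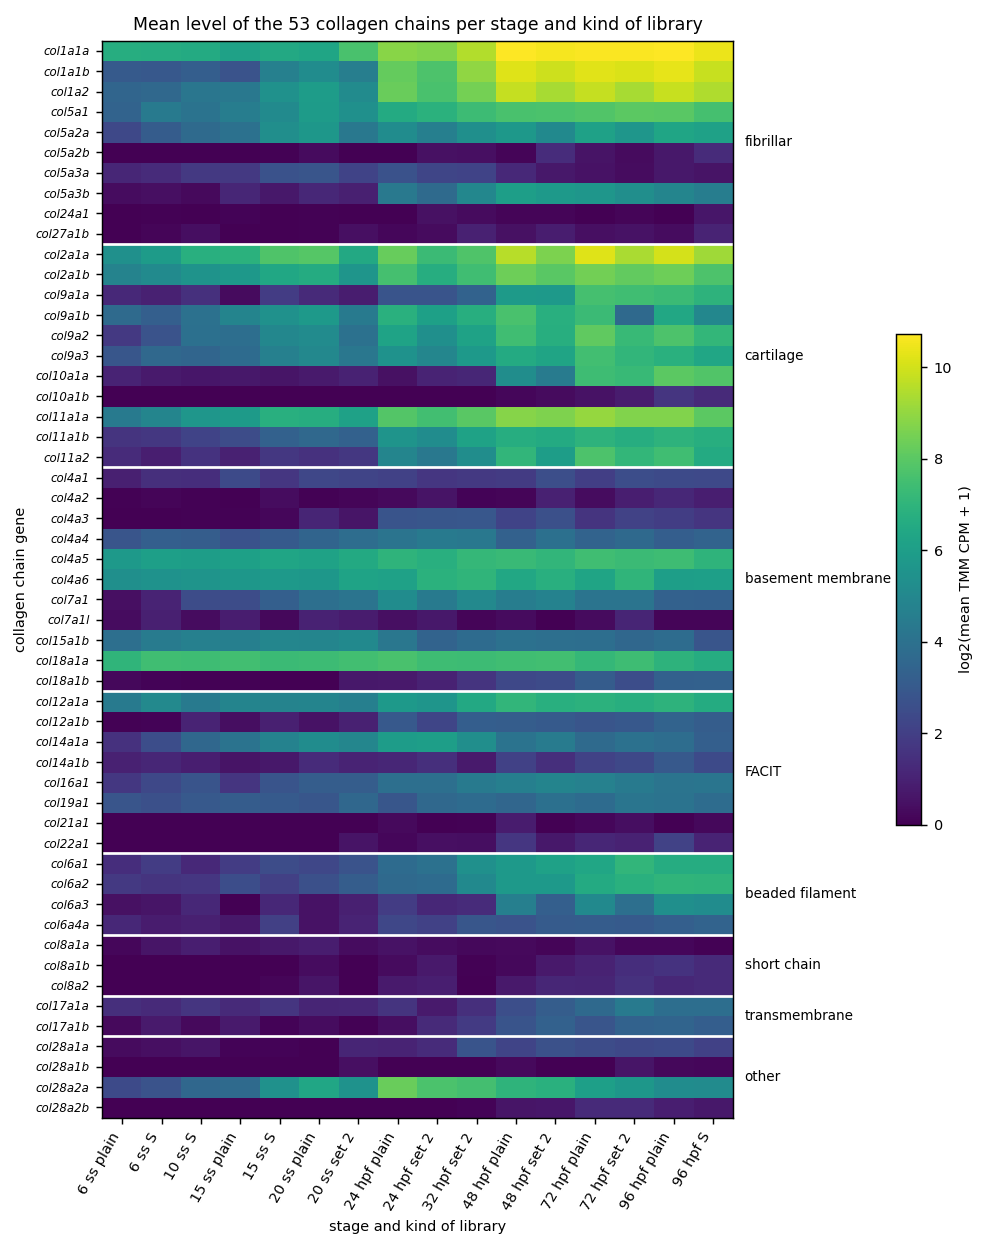
Mean level of each of the 53 collagen chains, as log2 of the group mean TMM-scaled CPM plus 1 (colour), by stage and kind of library (columns) and type (rows). Each type I chain has its highest means from 48 hpf on, and col2a1a and col11a1a are already visible at 6 ss. The chain col10a1a appears at 48 hpf, and col18a1a varies less than these.

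The type I chains rose between 15 ss and 48 hpf and then levelled off. Type I collagen is the main protein of skin, tendon and bone, and zebrafish carry a duplicated alpha 1 chain (col1a1a and col1a1b) beside the alpha 2 chain col1a2. Of these, col1a1b and col1a2 were already called higher from 6 to 15 ss in the S libraries. The level of col1a1a in the plain libraries was 67.2 to 142 CPM (median 105) at 6 ss, and at 15 ss its 4 libraries held 76.8, 58.8, 80.9 and 65.6 CPM. At 24 hpf it was 408 to 518 CPM (median 448), at 48 hpf 1558 to 1796 CPM (median 1731) and at 96 hpf 1486 to 1846 CPM (median 1679). The 15 ss libraries lay within or below the range at 6 ss, every 24 hpf library was above every 15 ss library, and every 48 hpf library was above every 24 hpf one. The log2 fold change was 2.69 ± 0.14 (SE; adjusted p = 1.53e-37, edgeR) from 15 ss to 24 hpf, and 1.91 ± 0.10 and 1.92 ± 0.10 from 24 to 48 hpf in the plain libraries and set 2.

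The partner chain col1a2 started lower against its own later level. It was at 6.06 to 14.9 CPM (median 10.2) at 6 ss. At 15 ss it was at 18.2, 22.6, 10.6 and 22.3 CPM in the 4 plain libraries and 32.7, 42.9, 46.6, 50.4 and 39.6 CPM in the 5 S libraries, and at 277 to 328 CPM (median 305) at 24 hpf. The S libraries of 15 ss were all above the plain ones. At 48 hpf the plain libraries held 823 to 965 CPM (median 861), and at 96 hpf 789 to 996 CPM (median 882), ranges that overlap. Between 15 ss and 24 hpf its log2 fold change was 4.04 ± 0.17 (adjusted p = 1.12e-45, edgeR), and over the whole course it was 6.46 ± 0.15 in the plain and 6.00 ± 0.14 in the S libraries. The other alpha 1 chain, col1a1b, had the largest rise among the fibrillar chains, with a log2 fold change of 7.46 ± 0.18 in the plain libraries (adjusted p = 2.52e-74, edgeR) and 7.06 ± 0.18 in the S libraries.

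The ratio of the type I chains to each other was compared within each library. At 6 ss col1a1a made up 93.2% of the counts of the alpha 1 pair in the plain libraries, at 24 hpf 60.7% and at 96 hpf 56.6%. The log2 ratio of col1a1a to col1a1b was 3.86 ± 0.95 (SD, n = 8) at 6 ss, 3.62 ± 0.44 (n = 4) at 15 ss, and 1.11 ± 0.29 (n = 8) at 20 ss. It was 0.62 ± 0.07 at 24 hpf and 0.36 ± 0.14 at 96 hpf (n = 8 each). Between 6 ss and 96 hpf it fell by 3.50 in the plain and by 3.30 in the S libraries, with no overlap of the groups (exact permutation test, two-sided, adjusted p = 0.000497 over 16 ratio tests in each). The S libraries reached 1.85 ± 0.43 (n = 5) already at 15 ss, while set 2 was still at 3.13 ± 0.57 (n = 8) at 20 ss. The ratio of both alpha 1 chains to col1a2 fell as well, from 3.40 ± 0.53 to 1.72 ± 0.10 in the plain libraries (adjusted exact permutation p = 0.000497). In the plain libraries it was lowest at 20 ss, where it stood at 0.95 ± 0.17 (n = 8). In set 2 it was highest at 20 ss, at 2.66 ± 0.48 (n = 8), with later means from 1.63 at 24 hpf to 2.07 at 72 hpf. Reads that match transcripts of both duplicates are divided between them by the estimation step, so a ratio between near-identical copies is less certain than the sum of both.

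**Figure D3:**
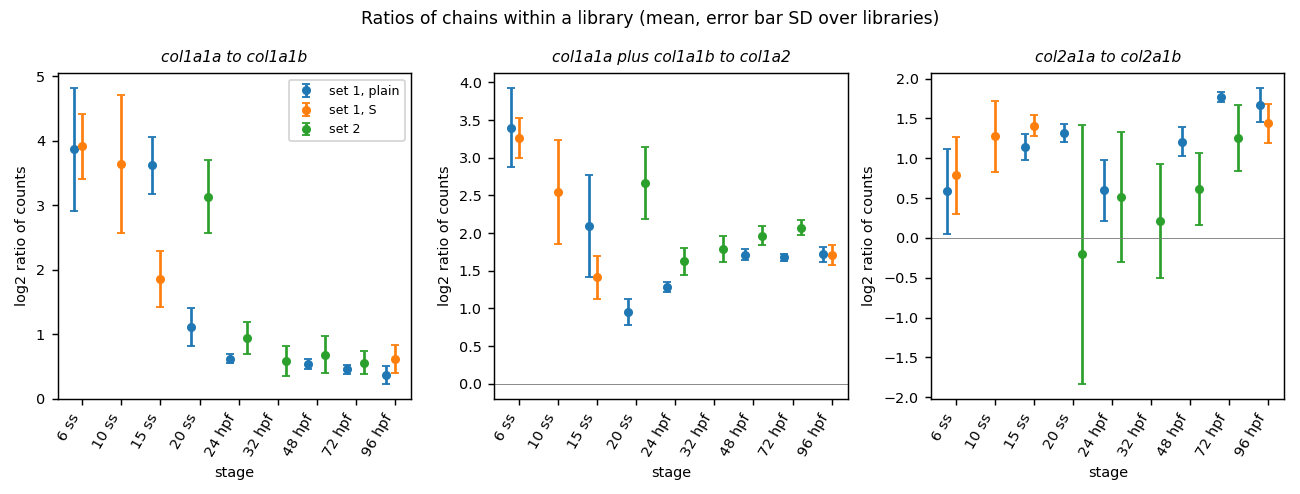
Log2 ratio of the counts of chains within a library, with 0.5 added to each count (points are means over libraries, error bars the SD, colours the kind of library), by stage. The ratio of col1a1a to col1a1b goes from 3.86 at 6 ss to 0.36 at 96 hpf in the plain libraries. That of col2a1a to col2a1b goes from 0.58 to 1.67, with 1.31 at 20 ss and 0.60 at 24 hpf between.

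Type V collagen nucleates type I fibrils and limits their width, and its chain col5a1 was called from 6 to 15 ss in the plain libraries. Its level was 3.48 to 13.0 CPM (median 10.7) at 6 ss, and the 4 plain libraries of 15 ss held 14.2, 33.7, 21.5 and 21.6 CPM. The lowest of these was above the highest 6 ss library. In the S libraries the step was not called, and the groups overlapped (10.3 to 29.6 CPM at 6 ss and 26.8 to 41.1 CPM at 15 ss). At 24 hpf it was 75.6 to 106 CPM (median 97.1), at 48 hpf 151 to 222 CPM (median 211) and at 96 hpf 169.6 to 296 CPM (median 273). The first step had a log2 fold change of 1.23 ± 0.23 (adjusted p = 5.98e-05, edgeR), which dropped under 1 without replicate 2 of 15 ss (0.98, adjusted p = 0.011). The next step had 2.05 ± 0.22 (adjusted p = 6.21e-14). From 24 to 48 hpf it was 1.10 in the plain libraries, 0.99 and so not called when library totals replaced TMM, and not called in set 2. A second type V chain, col5a2a, was called in both kinds of library from 6 to 15 ss, with 1.94 and 2.35. Its mean was 4.00 CPM at 6 ss and 78.8 CPM at 96 hpf in the plain libraries.

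The other type V chains include the duplicates col5a3a and col5a3b. The mean of col5a3b was 0.290 CPM at 6 ss, 19.1 CPM at 24 hpf and 63.6 CPM at 48 hpf in the plain libraries, with a log2 fold change of 3.99 ± 0.45 from 15 ss to 24 hpf (adjusted p = 3.16e-13, edgeR). For col5a3a the plain mean was highest at 20 ss (6.04 CPM) and 1.38 CPM at 48 hpf. It fell from 24 to 48 hpf in set 2 (-2.55 ± 0.86, adjusted p = 0.0182) but was not called in the plain libraries (-2.03 ± 0.82), a difference that did not pass its own test. The fibrillar chains col24a1, col5a2b and col27a1b had 75, 183 and 201 counts in all libraries together. Of the 10 fibrillar genes, 2 and 3 rose from 6 to 15 ss (plain and S), 6 from 15 ss to 24 hpf, 6 and 4 from 24 to 48 hpf (plain and set 2), and 7 over the whole course in both kinds. In the same order 1.43% and 3.23%, 8.69%, 8.97% and 11.1%, and 28.3% and 26.8% of all genes rose.

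Members of the cartilage group rose in every step up to 72 hpf, and all 11 genes rose over the whole course in both the plain and the S libraries. Its median log2 fold change over the whole course was 5.83 in the plain and 4.62 in the S libraries, or 4.67 and 3.33 with col10a1b, which had no count at 6 ss, at its bound. For single steps, 3 of 11 rose from 6 to 15 ss in the plain and 7 in the S libraries, 9 from 15 ss to 24 hpf, 8 and 9 from 24 to 48 hpf, and 2 and 3 from 48 to 72 hpf, where col9a1b fell in set 2. The shares of all genes that rose in these steps were 1.43% and 3.23%, 8.69%, 8.97% and 11.1%, and 2.31% and 7.09%. Over the whole course they were 28.3% and 26.8%.

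Type II collagen is the main fibrillar collagen of cartilage and of the notochord sheath, and its chain col2a1a was among the early risers. Its level was 27.5 to 56.3 CPM (median 39.5) at 6 ss. The 15 ss libraries held 103, 109.7, 110.5 and 131 CPM (plain) and 201, 202, 215, 244 and 245 CPM (S), and every one of them was above every 6 ss library of its kind. It was at 180.0 to 463 CPM (median 313) at 24 hpf, 606 to 838 CPM (median 782) at 48 hpf, 1117 to 1259 CPM (median 1197) at 72 hpf and 877 to 1197 CPM (median 1043) at 96 hpf. These plain ranges at 24, 48 and 72 hpf did not overlap, while those of set 2 at 48 and 72 hpf did (280 to 554 and 505 to 852 CPM). The log2 fold change was 1.47 ± 0.34 (adjusted p = 0.00247, edgeR) and 1.93 ± 0.31 from 6 to 15 ss, 1.41 ± 0.36 from 15 ss to 24 hpf, and 1.34 ± 0.27 from 24 to 48 hpf. The duplicate col2a1b rose less over the course (log2 fold change 3.60 ± 0.16 against 4.67 ± 0.32). The log2 ratio of col2a1a to col2a1b was higher at 96 hpf (1.67 ± 0.21) than at 6 ss (0.58 ± 0.53) in the plain libraries (SD, n = 8 each, adjusted exact permutation p = 0.000829). The rise was not steady, with 1.31 ± 0.11 at 20 ss and 0.60 ± 0.38 at 24 hpf (n = 8 each). Between 48 and 72 hpf it went from 1.21 ± 0.18 to 1.77 ± 0.06 in the plain libraries with no overlap (n = 8 each, adjusted exact permutation p = 0.000497). In set 2 it went from 0.61 ± 0.45 to 1.25 ± 0.41 (n = 8 each, adjusted exact permutation p = 0.0221).

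Type XI collagen nucleates the type II fibrils. Its chain col11a1a was called from 6 to 15 ss in both kinds of library, at a plain mean of 20.7 CPM at 6 ss, 55.9 CPM at 15 ss, 232 CPM at 24 hpf and 528 CPM at 72 hpf. The duplicate col11a1b was called in this step in the S libraries (1.14 to 4.15 CPM at 6 ss and 6.37 to 11.1 CPM at 15 ss), and not in the plain libraries (0 to 4.85 CPM and 1.23 to 8.16 CPM). The chain col11a2 came later. Its plain mean was 1.00 CPM at 15 ss, 28.7 CPM at 24 hpf and 209.8 CPM at 72 hpf, and the rise from 15 ss to 24 hpf was 4.84 ± 0.46 (adjusted p = 5e-17, edgeR).

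Type IX collagen coats type II fibrils and is made of alpha 1, alpha 2 and alpha 3 chains. The alpha 1 chain col9a1a came late. It was at 0 to 3.23 CPM (median 0.968) at 6 ss, and of the 15 ss libraries 1 plain one held 0.906 CPM and the other 3 held 0 CPM, while the 5 S libraries held 4.25, 2.92, 4.81, 0.599 and 1.22 CPM. At 24 hpf it was 4.22 to 7.28 CPM (median 6.15), at 48 hpf 42.8 to 73.6 CPM (median 54.6), at 72 hpf 166 to 207 CPM (median 192) and at 96 hpf 125 to 179.8 CPM (median 168). The plain groups at 15 ss, 24 hpf, 48 hpf and 72 hpf did not overlap with each other. Its log2 fold change from 24 to 48 hpf was 3.26 ± 0.29 (adjusted p = 3.3e-19, edgeR) in the plain libraries and 3.22 ± 0.31 in set 2, and from 48 to 72 hpf it was 1.71 ± 0.26 and 1.72 ± 0.26. By contrast, col9a2 and col9a3 were already at plain means of 13.6 and 12.6 CPM at 15 ss and at 279 and 178 CPM at 72 hpf.

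The duplicate alpha 1 chain col9a1b behaved differently in the 2 sets between 48 and 72 hpf. In the plain libraries it was at 136 to 253 CPM (median 205) at 48 hpf and 122 to 185 CPM (median 169) at 72 hpf, ranges that overlap. In set 2 it was at 68.7 to 169 CPM (median 98.2) at 48 hpf and 2.26 to 25.5 CPM (median 9.09) at 72 hpf, so that every 72 hpf library was below every 48 hpf one. The log2 fold change was -3.23 ± 0.34 in set 2 (adjusted p = 4.04e-14, edgeR) and -0.37 ± 0.30 in the plain libraries. The difference of -2.86 ± 0.45 passed its test (adjusted p = 3.77e-06; 2.04% of all genes differed between the sets in this step). It was the only 1 of the 52 members tested whose change differed between the sets in this step. Among the 10 cartilage markers, 3 also had lower means at 72 hpf than at 48 hpf in set 2. These were matn3a (69.9 and 6.38 CPM), matn3b (7.41 and 1.32 CPM) and epyc (97.5 and 66.7 CPM), all matrix proteins, and in the plain libraries their means were not lower at 72 hpf (86.6 and 97.0, 13.8 and 13.8, and 140.4 and 175 CPM). The other cartilage markers had higher means at 72 hpf than at 48 hpf in set 2. The summed level of all 10 had medians of 202 and 416 CPM at 48 and 72 hpf in set 2. The part of these marker changes in the col9a1b difference was not tested. In the same set 2 libraries the means of the other type IX chains were higher at 72 hpf than at 48 hpf, with col9a1a at 52.8 and 173 CPM, col9a2 at 106 and 152 CPM and col9a3 at 77.1 and 133 CPM. The summed level of 5 notochord markers in set 2 had a median of 50.3 CPM at 48 hpf and of 46.8 CPM at 72 hpf. The means of 3 of the 5 were lower at 72 hpf in set 2 (shha, shhb and tbxta), with tbxta at 5.92 and 0.792 CPM. Those of noto and ntd5 were higher, with ntd5 at 21.0 and 28.3 CPM. In the plain libraries 3 were lower too (noto, shha and tbxta), with tbxta at 7.93 and 3.16 CPM. The part of the notochord in the col9a1b difference was not tested. At 96 hpf col9a1b was at 56.8 to 131 CPM (median 80.7) in the plain and 11.2 to 59.3 CPM (median 28.2) in the S libraries.

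Type X collagen appeared late, and col10a1a had the largest log2 fold change of all members from 24 to 48 hpf in both sets. The level of col10a1a did not pass 5.25 CPM in any library up to 32 hpf, with group means between 0.39 and 1.23 CPM. At 48 hpf it was at 30.2 to 48.0 CPM (median 36.0) in the plain libraries and 4.99 to 45.2 CPM (median 23.9) in set 2. At 72 hpf the same kinds held 154 to 183 CPM (median 164) and up to 198 CPM with a median of 143 CPM. At 96 hpf it was at 218 to 293 CPM (median 264) in the plain and 165 to 276 CPM (median 225) in the S libraries. The ranges of the plain libraries at 24, 48, 72 and 96 hpf did not overlap. From 24 to 48 hpf the log2 fold change was 6.54 ± 0.40 (adjusted p = 3.15e-31, edgeR) in the plain libraries and 4.53 ± 0.41 (adjusted p = 1.71e-18) in set 2, and from 48 to 72 hpf it was 2.13 ± 0.26 and 2.85 ± 0.27. Together with col9a1a it was the only member called higher from 48 to 72 hpf in both sets. Its duplicate col10a1b had no count before 48 hpf, and was at least 13.3-fold higher at 96 hpf than at 6 ss in the plain libraries and at least 7.13-fold higher in the S libraries (bound from 3 counts over the group without counts).

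**Figure D4:**
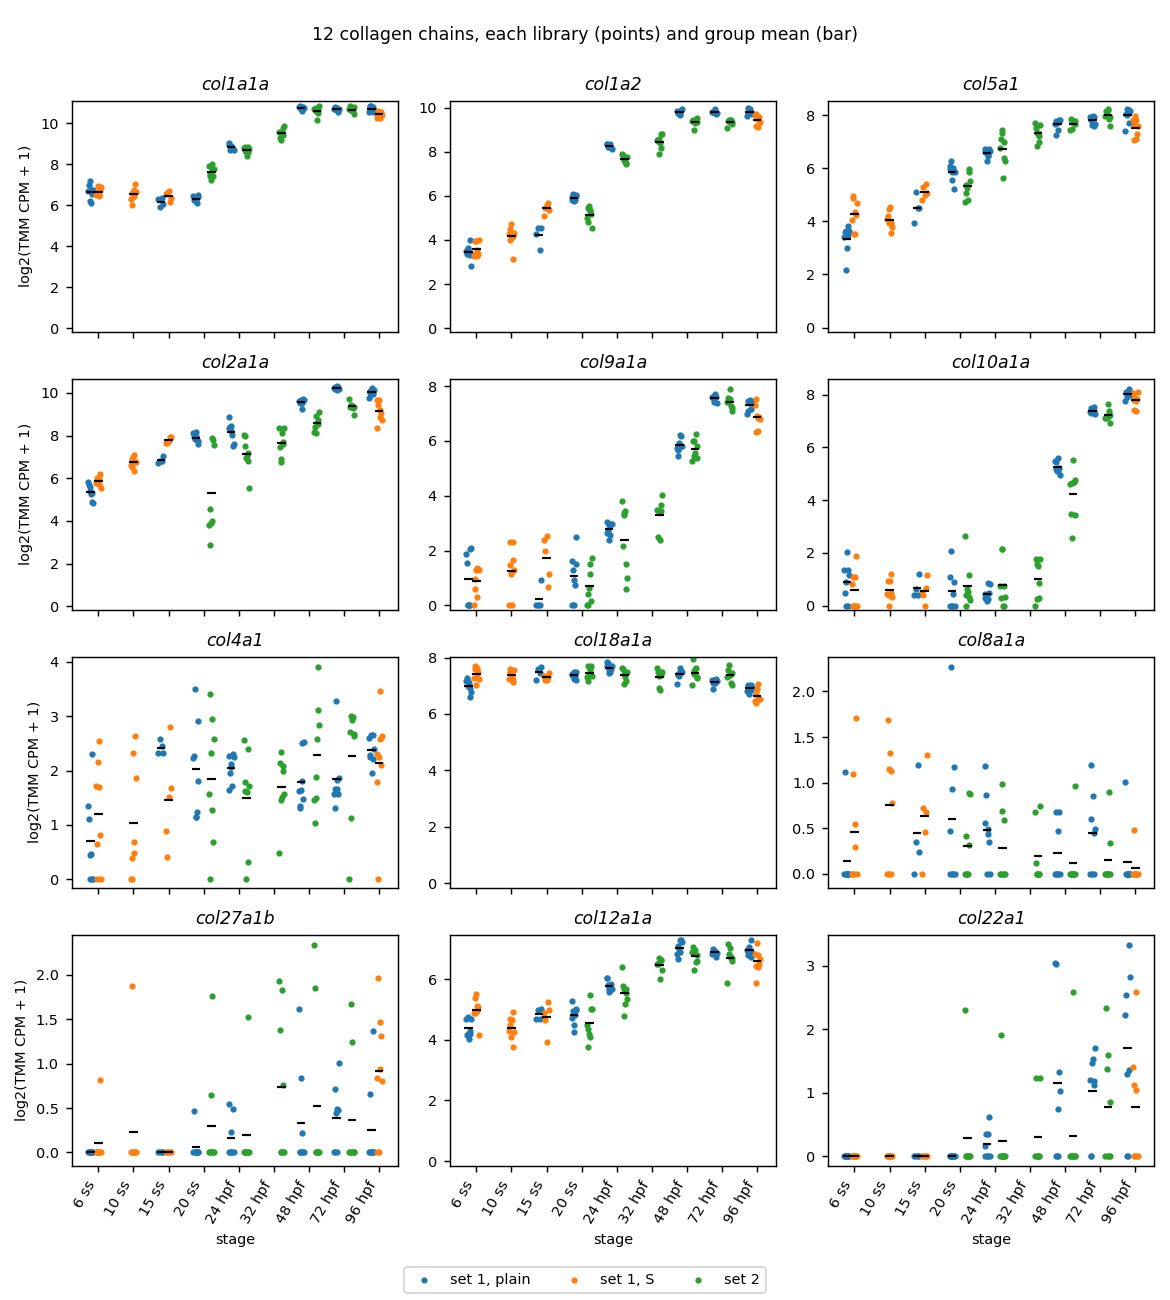
Level of 12 collagen chains in each library, as log2 of TMM-scaled CPM plus 1 (points; bars are group means; colours the kind of library), by stage. The axes differ between genes, and col10a1a stays low to 32 hpf and then climbs, whereas col18a1a keeps about the same level; in the 20 ss group of set 2 the col2a1a libraries lie in separate clusters.

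A notochord list, which crosses these types, held col2a1a, col8a1a, col9a1b, col11a1a, col11a1b and col27a1b, since 6 of its 8 genes were in the table. Of these 6, 2 rose from 6 to 15 ss in the plain libraries and 4 in the S libraries, 4 from 15 ss to 24 hpf, 2 and 3 from 24 to 48 hpf, and 4 over the whole course in both kinds. In the same order 1.43% and 3.23%, 8.69%, 8.97% and 11.1%, and 28.3% and 26.8% of all genes rose. The chains col8a1a and col27a1b, both known from the notochord sheath of zebrafish, were near the limit of detection. For col8a1a 50 libraries of all kinds had a count and the highest group mean was 0.854 CPM at 10 ss in the S libraries. For col27a1b 33 libraries had a count, the plain libraries at 6 and 15 ss had none, and the highest group mean was 1.08 CPM at 96 hpf in the S libraries. By edgeR no step of either gene was called. For col27a1b the whole course missed the threshold (adjusted p = 0.0514 in the plain and 0.0521 in the S libraries) and was called under 3 and 4 of 7 alternatives, with the lowest adjusted p at 0.0286 and 0.00497. For col8a1a no alternative made a call, and a change could not have been detected at this depth unless it was large against these levels. For the 8 plain libraries at 6 ss, a count of 0 for col27a1b allows up to 0.149 CPM over the group (3 counts, counting error only).

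In set 2 the 8 libraries of 20 ss lay in separate clusters for several cartilage chains. Replicates 1 to 8 held 13.1, 22.9, 6.41, 14.2, 14.8, 234, 220.5 and 184.7 CPM of col2a1a. Replicates 6, 7 and 8 lay within or close to the plain range at 20 ss (196 to 287 CPM) and the other 5 were below every plain library of any stage. In the same order col9a1b was at 12.1, 0.331, 5.49, 3.97, 2.12, 63.9, 45.9 and 31.3 CPM, and col9a2 at 4.59, 1.99, 0, 0, 2.12, 32.2, 45.9 and 32.5 CPM. Replicates 6 to 8 were the highest for both, and for col9a3 (34.3 to 46.2 CPM against 0.458 to 15.4 CPM) and col2a1b (52.4 to 88.3 CPM against 23.9 to 40.2 CPM) too. The chain col9a1a did not divide in this way, with 2.32 CPM or less in every library and replicate 5 above replicates 6 and 7. Nor did col11a1b, with replicate 2 (13.9 CPM) above replicates 6 (12.3 CPM) and 8 (6.30 CPM). The same was true of col11a2, with replicates 1 and 3 (2.62 and 2.75 CPM) above replicates 6 and 7 (2.20 and 2.19 CPM). For col11a1a the values were 33.1, 53.7, 52.6, 45.4, 22.6, 131, 113 and 103 CPM, again with replicates 6 to 8 on top. The type I chain col1a1a showed no such pattern, with 237, 181, 169, 147, 207, 259, 171 and 216 CPM. The summed level of 5 notochord markers was 106, 97.8, 38.4, 15.9, 47.0, 179.6, 147 and 158 CPM in these libraries, against 97.2 to 150.2 CPM in the plain libraries of 20 ss. That of 4 muscle markers was 166, 132, 86.9, 119.7, 98.9, 162, 173 and 196 CPM against 334 to 447 CPM. Total counts were 2807539, 2633064, 1792612, 3126449, 6896335, 7915780, 7501578 and 5191601. The part of these differences in the collagen values was not tested. No step tested here compared the 20 ss group of set 2 with another group. Its libraries were nevertheless part of the single edgeR fit, and so of the estimate of the spread that all steps share. At 24 hpf, replicate 8 of set 2 was the lowest for col2a1a (46.4 CPM, the other 7 at 112 to 261 CPM), col9a1b (10.4 CPM, the others at 52.4 to 148 CPM) and col9a2 (7.10 CPM, the others at 32.8 to 60.0 CPM).

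Basement membrane chains held the largest share of collagen counts at 6 ss. Of the 11 genes, 1 (9.09%) rose from 6 to 15 ss in each kind, against 1.43% (plain) and 3.23% (S) of all genes. From 15 ss to 24 hpf 3 rose (27.3%, against 8.69% of all genes). From 24 to 48 hpf 1 (9.09%) rose in each set, near the 8.97% (plain) and 11.1% (set 2) of all genes. In set 2, 1 (9.09%) fell in this step (7.33% of all genes) and 1 (9.09%) rose from 48 to 72 hpf (7.09% of all genes). Over the whole course 6 of 11 (54.5%) rose in the plain libraries, where 28.3% of all genes did, and 3 (27.3%) rose and 1 fell in the S libraries, where 26.8% of all genes rose, with a median log2 fold change over the course of 1.62 (plain) and 0.90 (S). Type XVIII collagen carries heparan sulfate and releases the endostatin fragment, and its chain col18a1a was at 96.5 to 154 CPM (median 131) at 6 ss. It was at 146, 191, 174 and 200.3 CPM in the plain and 161, 148, 148, 159 and 172 CPM in the S libraries of 15 ss. It was at 176 to 228 CPM (median 199) at 24 hpf and 105 to 131 CPM (median 124) at 96 hpf, and its 16 group means lay between 100.1 and 199.6 CPM. In the S libraries it was at 129 to 209 CPM at 6 ss and at 83.3 to 134 CPM at 96 hpf. That fall, a log2 fold change of -0.78 (adjusted p = 1.37e-10, edgeR), was under the size needed for a call. The duplicate col18a1b, in contrast, was called from 24 to 48 hpf in both sets (2.48 ± 0.74 and 2.10 ± 0.76; adjusted p = 0.00624 and 0.0276, edgeR), with a plain mean of 0.680 CPM at 24 hpf and 8.84 CPM at 96 hpf.

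Type IV collagen forms the network of basement membranes, and its chains differed in course. The chains col4a5 and col4a6 were at plain means of 55.3 and 39.6 CPM at 6 ss and 171 and 63.7 CPM at 96 hpf, and of them col4a5 was called over the course in the plain libraries (1.62 ± 0.13, adjusted p = 7.83e-23, edgeR). The chain col4a3, which pairs with col4a4 and col4a5 in the kidney filter of mammals, had 0 counts at 6 ss in either kind and was at least 18.0-fold higher at 96 hpf in the plain and at least 19.0-fold higher in the S libraries. It was called higher at 24 hpf (2.64 to 8.20 CPM (median 6.47)) than at 15 ss, where the 4 plain libraries held 1 count together (adjusted p = 5.86e-05, edgeR). The widespread chain col4a1 was low in these libraries, at 0 to 3.95 CPM (median 0.376) at 6 ss. It was at 4.01, 5.01, 4.50 and 3.99 CPM in the plain and 0.850, 0.325, 1.85, 5.99 and 2.20 CPM in the S libraries of 15 ss, and 2.85 to 5.29 CPM (median 4.06) at 96 hpf. The 15 ss plain libraries stood above those of 6 ss and above those of 24 hpf (2.12 to 3.92 CPM), and the groups of every other step overlapped. It was called over the course in the plain libraries (2.15 ± 0.69, adjusted p = 0.00572) and not in the S libraries. Its partner col4a2 had a count in 33 libraries, and the ratio of the pair did not pass its test in any of 4 steps (adjusted exact permutation p from 0.358 to 0.928).

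Type VII collagen forms the anchoring fibrils of skin, and col7a1 rose early. It was at 0 to 1.18 CPM (median 0) at 6 ss, and in the 15 ss libraries at 4.63, 2.23, 7.71 and 4.17 CPM in the plain and 7.65, 7.14, 11.8, 5.39 and 11.2 CPM in the S libraries. It was at 27.9 to 45.9 CPM (median 37.4) at 24 hpf and at 3.65 to 15.8 CPM (median 7.99) at 96 hpf. The 15 ss and 24 hpf groups each lay above the group before without overlap. It had the largest log2 fold change among the members called from 6 to 15 ss in both kinds, 3.63 ± 0.57 (adjusted p = 1.21e-06, edgeR) and 2.95 ± 0.42 (adjusted p = 2.11e-08). A log2 fold change of 2.97 ± 0.42 followed to 24 hpf, while no single later step was called. The gene col7a1l, with 256 counts in all, had 0 counts in set 2 at 48 hpf, at least 5.70-fold lower than at 24 hpf, and was at least 15.3-fold higher at 72 hpf. Most of the 17 counts at 24 hpf and of the 57 at 72 hpf came from 1 library each, at 3.71 and 5.95 CPM. Both of these groups overlapped with that of 48 hpf. In the plain libraries neither step was called, with at most 0.681, 0.898 and 0.669 CPM at 24, 48 and 72 hpf. The difference between the sets did not pass its test for col7a1l in either step (edgeR). The type XV chain col15a1b was highest at 20 ss in the plain libraries (mean 28.8 CPM) and in set 2 (33.5 CPM). It was the 1 member that fell over the course in the S libraries (-1.76 ± 0.29, adjusted p = 6.44e-08, edgeR).

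The beaded filament chains of type VI, which surround cells in muscle and skin, rose together after 15 ss. All 4 rose from 15 ss to 24 hpf, 3 of 4 from 24 to 48 hpf in both sets, and 4 over the course in both kinds, with medians of 5.79 and 5.44. The shares of all genes that rose were 8.69%, 8.97% and 11.1%, and 28.3% and 26.8%. In the plain libraries col6a1 had means of 2.78 CPM at 15 ss, 12.3 CPM at 24 hpf, 54.3 CPM at 48 hpf and 99.3 CPM at 96 hpf, and col6a2 had 4.72, 11.9, 55.7 and 128 CPM. The chain col6a3 had 0 counts in the 4 plain libraries of 15 ss and was at least 14.4-fold higher at 24 hpf. From 24 to 48 hpf it rose by 3.11 ± 0.50 on the log2 scale in the plain libraries and 2.52 ± 0.54 in set 2 (adjusted p = 9.43e-08 and 0.000124, edgeR). At 72 hpf col6a2 was called again in set 2 (1.05 ± 0.22) but not in the plain libraries (0.76 ± 0.22).

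Among the FACIT chains, col12a1a of type XII, found along fibrils of fascia and tendon, rose between 24 and 48 hpf. Its level was 15.3 to 25.7 CPM (median 17.9) at 6 ss, and 24.7, 30.9, 24.7 and 31.7 CPM in the plain and 28.5, 24.3, 14.1, 37.2 and 30.6 CPM in the S libraries of 15 ss. At 24 hpf it was 46.5 to 65.2 CPM (median 52.8), at 48 hpf 99.5 to 155 CPM (median 131) and at 96 hpf 106 to 156 CPM (median 122). The plain ranges at 15 ss, 24 hpf and 48 hpf did not overlap, and those at 48 and 96 hpf did. In set 2 the ranges at 24 and 48 hpf overlapped (26.4 to 82.9 and 78.0 to 134 CPM). Between 24 and 48 hpf its log2 fold change was 1.27 ± 0.16 (adjusted p = 2.6e-11, edgeR) in the plain libraries and 1.18 ± 0.16 in set 2. The duplicate col12a1b rose from 15 ss to 24 hpf (4.30 ± 0.93, adjusted p = 0.000135) from a mean of 0.324 to 6.98 CPM. Over the course 7 of the 8 FACIT genes rose in the plain and 6 in the S libraries (28.3% and 26.8% of all genes did).

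The type XIV chain col14a1a, which zebrafish embryos express in the epidermis, rose to 24 hpf and then fell. It was at 0 to 3.55 CPM (median 2.11) at 6 ss. At 15 ss it was at 20.0, 14.5, 11.2 and 19.0 CPM in the plain and 24.6, 34.1, 20.7, 26.1 and 24.7 CPM in the S libraries. Later plain libraries held 53.9 to 68.2 CPM (median 58.0) at 24 hpf, 9.43 to 24.6 CPM (median 15.7) at 48 hpf and 4.02 to 29.6 CPM (median 10.0) at 96 hpf. The plain groups at 6 ss, 15 ss and 24 hpf, and those at 24 and 48 hpf, did not overlap. The log2 fold change was 3.12 ± 0.36 (adjusted p = 1.53e-11, edgeR) and 1.87 ± 0.32 on the way up, and -1.84 ± 0.24 in the plain libraries and -1.60 ± 0.24 in set 2 on the way down (adjusted p = 1.53e-10 and 2.67e-08). Over the same step the summed level of 6 epidermis markers had medians of 28564 and 34538 CPM in the plain libraries and 20692 and 26144 CPM in set 2. The means of 2 of the 6 were lower at 48 hpf in the plain libraries and of 4 in set 2, among them krt5 in both (3058 and 1683 CPM, and 1892 and 1477 CPM). The part of the epidermis in the fall of col14a1a was not tested.

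The type XXII chain col22a1, a collagen of the junction between muscle and tendon, appeared late and at few counts. The plain and S libraries up to 20 ss had no count, 4 of 8 plain libraries had one at 24 hpf, 5 of 8 at 48 hpf and 6 of 8 at 72 and at 96 hpf, with a highest level of 9.00 CPM at 96 hpf. It was at least 20.6-fold higher at 96 hpf than at 6 ss in the plain and at least 9.99-fold higher in the S libraries. The call from 24 to 48 hpf in the plain libraries (3.62 ± 1.37, adjusted p = 0.0385, edgeR) was not made by DESeq2 (4.10, adjusted p = 0.160), and that over the course in the S libraries was not made either (adjusted p = 0.0817). For col21a1, with counts in 11 libraries, no step was called.

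Of the type XXVIII genes, col28a2a rose to 24 hpf and fell afterwards. It was at 0.439 to 10.7 CPM (median 3.54) at 6 ss. The 15 ss libraries held 9.25, 18.9, 8.03 and 12.7 CPM in the plain and 40.8, 50.3, 44.4, 41.7 and 33.2 CPM in the S libraries. It was at 279 to 346 CPM (median 315) at 24 hpf, 107 to 138 CPM (median 128) at 48 hpf and 26.5 to 51.2 CPM (median 33.9) at 96 hpf. The 15 ss S libraries were all above the plain ones, and the groups at 15 ss, 24 hpf and 48 hpf did not overlap with each other. The rise was 4.67 ± 0.26 from 15 ss to 24 hpf (adjusted p = 2.81e-34, edgeR). The fall was -1.30 ± 0.16 from 24 to 48 hpf in the plain libraries (adjusted p = 1.18e-11) and -1.15 ± 0.16 from 48 to 72 hpf in set 2 (adjusted p = 1.24e-08). It was -0.88 from 24 to 48 hpf in set 2 and -0.96 from 48 to 72 hpf in the plain libraries, under the size needed for a call. In these steps, too, the groups did not overlap. The gene col28a2b had 0 counts at 24 hpf and was at least 7.99-fold higher at 48 hpf in the plain libraries and at least 5.30-fold higher in set 2. These bounds rest on 20 counts (plain) and 16 counts (set 2) at 48 hpf. In set 2 all 16 were in 1 library (4.63 CPM), and in both sets the groups overlapped.

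Type XVII collagen spans the membrane of basal skin cells. Its chain col17a1b rose from 24 to 48 hpf in both sets (4.15 ± 0.75 and 2.68 ± 0.69; adjusted p = 1.91e-06 and 0.00156, edgeR), from 0.300 to 5.85 CPM and from 1.42 to 9.02 CPM. The duplicate col17a1a was called in set 2 only (3.48 ± 0.65 against 1.29 ± 0.56), and the difference between the sets did not pass its test. Of the short chain genes col8a1b and col8a2 rose over the course in both kinds. For col8a1b the bounds were at least 11.8-fold (plain) and at least 13.3-fold (S).

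Of the members with a mean of at least 2 CPM in some plain group, 17 had their highest mean at 96 hpf, 11 at 72 hpf, 5 at 48 hpf, 6 at 24 hpf, 2 at 20 ss and 1 at 15 ss. All 8 chains of types II, IX (alpha 2, alpha 3 and col9a1a) and XI were in the 72 hpf group, and the 4 type VI chains in the 96 hpf group. The 24 hpf group held col14a1a, col4a3, col4a4, col7a1, col18a1a and col28a2a. These are orders of means, and neighbouring stages such as 72 and 96 hpf were not called different for any member.

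Steps sampled in more than 1 kind of library shared called members to different degrees. The same overlap was not counted over all genes, so these percentages cannot be set against those of genes in general. From 24 to 48 hpf 18 members rose in both sets, which is 81.8% of the 22 of the plain libraries and 85.7% of the 21 of set 2, and col14a1a fell in both, 50.0% of the 2 and 33.3% of the 3 that fell. The change of 0 members differed between the sets in this step by edgeR (4.58% of all genes did) and of 1 by DESeq2, with 8 at an unadjusted p under 0.05. From 6 to 15 ss 7 members rose in both kinds (col11a1a, col14a1a, col28a2a, col2a1a, col5a2a, col7a1 and col9a2), 87.5% of the 8 plain and 53.8% of the 13 S members. From 48 to 72 hpf both members that rose in the plain libraries also rose in set 2, where they made up 40.0% of the 5, and the 2 members that fell in set 2 were not called in the plain libraries.

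**Figure D5:**
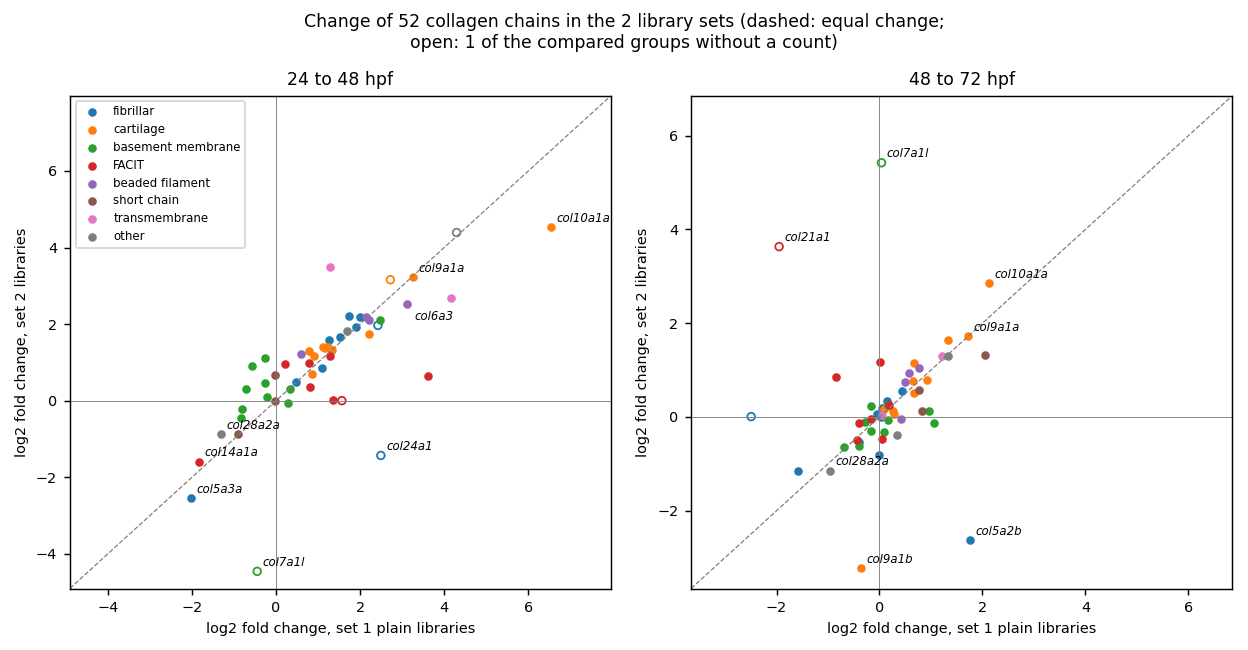
Log2 fold change of each of 52 collagen chains in set 2 (vertical) against that in the plain libraries of set 1 (horizontal), from 24 to 48 hpf (left) and from 48 to 72 hpf (right). Colours give the type, open circles mark genes with no count in one of the compared groups, and in the right panel col9a1b lies far below the dashed line of equal change, at -3.23 in set 2 and -0.37 in the plain libraries.

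From 6 to 15 ss the change of 2 members differed between S and plain libraries (0.176% of all genes did), both type I chains and both larger in S. The difference was 2.24 ± 0.30 for col1a1b (adjusted p = 3.98e-07, edgeR) and 1.09 ± 0.22 for col1a2 (adjusted p = 0.0063). The S libraries of 15 ss held 18.8 to 29.7 CPM of col1a1b and the plain ones 4.17 to 7.24 CPM, and at 20 ss the plain libraries held 25.8 to 49.0 CPM. The S and plain libraries of 15 ss also differed in the presomitic, muscle and blood markers, the last at 96.0 to 243 CPM in S and 48.1 to 61.3 CPM in plain, and the part of this in the difference was not tested.

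From 6 ss to 96 hpf the change of 8 members differed between the kinds (0.795% of all genes did), and all 8 had a lower log2 fold change in S. These were col14a1a (-2.02 ± 0.45), col15a1b (-1.63), col5a1 (-1.46 ± 0.26), col11a1a (-1.17), col12a1a (-1.02), col2a1b (-0.97), col4a5 (-0.72) and col18a1a (-0.69), with adjusted p from 0.000260 to 0.0222 (edgeR). For col5a1 the S mean was higher at 6 ss (19.6 against 9.65 CPM) and lower at 96 hpf (188 against 257 CPM). The cartilage marker sum at 96 hpf was 401 to 743 CPM in the S and 564 to 649 CPM in the plain libraries, ranges that overlap. The used number in the sample table also differed, 1 for the S and 5 for the plain group at 96 hpf and 25 and 50 at 6 ss, so that kind of library and used number cannot be told apart.

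A list of 55 genes that modify, fold, export, cleave or crosslink collagen held 47 genes of the table, 44 of them tested. Over the course 14 (31.8%) rose and 4 (9.09%) fell in the plain libraries, and 13 (29.5%) and 4 (9.09%) in the S libraries. The shares that rose were close to those of all genes (28.3% and 26.8%), and those that fell were lower (17.4% and 17.6% of all genes). Among the genes that rose was sparc, a collagen-binding matrix protein (5.26 ± 0.13 in the plain and 5.06 ± 0.12 in the S libraries, adjusted p = 4.09e-74 and 4.59e-73, edgeR). Another was loxl3b, a lysyl oxidase of the kind that crosslinks fibrils (4.12 ± 0.48 and 3.57 ± 0.45). The lysyl oxidase loxa and pcolceb, an enhancer of propeptide cleavage, also rose in both kinds, but had at most 1 library with a count among the plain libraries of 6 ss. From 48 to 72 hpf, a step in which the type I chains were not called, both rose in both sets, with 3.74 ± 0.76 for loxa and 4.85 ± 0.88 for pcolceb in the plain libraries (adjusted p = 0.000131 and 1.02e-05). Of the 44 tested, 3 (6.82%) rose in this step in each set, against 2.31% (plain) and 7.09% (set 2) of all genes. The largest falls over the course in the plain libraries were of p3h1 (-2.23 ± 0.21) and crtap (-2.21 ± 0.16), which form the prolyl 3-hydroxylase complex, and of mia3 (-1.60 ± 0.26), an export factor for large cargo.

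The collagen chaperone serpinh1b (Hsp47) rose from 6 to 15 ss in both kinds (1.14 in the plain libraries), fell from 15 ss to 24 hpf (-1.10 ± 0.18, adjusted p = 1.68e-07, edgeR) and fell again from 72 to 96 hpf (-1.08 ± 0.16, adjusted p = 4.91e-08). From 15 ss to 24 hpf sparc (3.14), loxl3b (2.51) and loxl2b (2.39) had the largest rises among the genes of the list that were called. In this step 5 (11.4%) of the list rose and 1 (2.27%) fell, against 8.69% and 3.05% of all genes. Between 72 and 96 hpf, where no collagen chain was called, 5 of the 44 tested genes of the list (11.4%) fell, against 0.384% of all genes. The largest falls were of fkbp10b (-1.43 ± 0.24), fkbp7 (-1.12 ± 0.15) and crtap (-1.11 ± 0.16) (adjusted p from 1.13e-09 to 3.83e-06, edgeR).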

How the data were processed

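Total RNA of zebrafish whole-embryo samples was sequenced by Lasy-Seq, and the authors deposited 1 table of counts per gene. Per the study's methods and the submitters' processing notes, reads were trimmed with fastp 0.21.0 and aligned with BWA-MEM 0.7.17-r1188 to Ensembl GRCz11 transcripts, and the deposited values are salmon's estimated counts, assigned without strand and rounded to whole numbers here (2 values were not whole). Reads shared by duplicated, overlapping or antisense genes cannot be told apart.

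Libraries were grouped by stage and kind. All 16 groups entered 1 edgeR 4.0.16 quasi-likelihood fit (R 4.3.3, TMM scaling, keeping the 21638 of 24801 genes that 8 or more libraries had counted), with 10 steps and 4 differences between steps. Shares and log2 ratios (0.5 added to counts) were compared by two-sided exact permutation tests, whose smallest p for 8 against 8 libraries is 0.000155. Levels are TMM-scaled CPM, not scaled for transcript length. Shares and ratios set different genes against each other as counts, not as amounts of RNA. Bounds and floors take 3 counts and cover counting error only.

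Any member may be named. Values are given in full for 12 chains chosen by type and for the 3 called members with the largest change per step and direction, and the processing list is named by the same rule. Members and lists were chosen with earlier results of these data known. Alternatives were library totals, DESeq2 1.42.0, other filters on low counts, each set of libraries alone, a replicate block and leaving out libraries. Fits were tested on simulated counts. All 53 members were found in the RefSeq gene table of GRCz12tu, used for names only, and 40 in the Ensembl name table.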

Additional observations from a re-analysis of the deposited data

Results flagged for a closer look

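Groups of 4, 5 or 8 libraries with any spread gave 199 sets of values, of the collagen share and the 12 chains shown in full. Of these sets, 22 had 1 library far from the rest by Dixon's criterion, where chance gives about 1 in 20. All 22 were of single chains, and values here are log2(CPM + 1). Of these libraries, 6 were low: col1a2 in replicate 7 of 10 ss S (3.14, the others 4.01 to 4.72) and replicate 4 of 48 hpf set 2 (8.96), col2a1a in replicate 6 of 48 hpf plain (9.25), col18a1a in replicate 2 of 72 hpf plain (6.89), and col12a1a in replicate 8 of 6 ss S (4.15) and replicate 1 of 72 hpf set 2 (5.87). The other 16 were high, and 15 of them rest on 1 to 17 counts in a gene with few or no counts elsewhere in the group. For col8a1a they were replicate 2 of 6 ss plain (1.11), replicate 7 of 48 hpf set 2 (0.97), replicate 6 of 72 hpf set 2 (0.90), replicate 1 of 96 hpf plain (1.00) and replicate 2 of 96 hpf S (0.48). For col27a1b they were replicate 7 of 6 ss S (0.81), replicate 2 of 10 ss S (1.88), replicate 2 of 20 ss plain (0.47), replicate 5 of 20 ss set 2 (1.77) and replicate 7 of 24 hpf set 2 (1.52). For col22a1 they were replicate 1 of 20 ss set 2 (2.30), replicate 2 of 24 hpf set 2 (1.91) and replicate 5 of 48 hpf set 2 (2.58). The remaining ones were col9a1a in replicate 4 of 15 ss plain (0.93), col10a1a in replicate 1 of 20 ss set 2 (2.64) and col4a1 in replicate 4 of 72 hpf plain (3.28).

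The log2 fold change of 11 tests of the difference between kinds of library passed in the edgeR fit. From 6 to 15 ss, S minus plain was 2.24 for col1a1b and 1.09 for col1a2. From 48 to 72 hpf, set 2 minus plain was -2.86 for col9a1b. From 6 ss to 96 hpf, S minus plain was -2.02 for col14a1a, -1.63 for col15a1b, -1.46 for col5a1, -1.17 for col11a1a, -1.02 for col12a1a, -0.97 for col2a1b, -0.72 for col4a5 and -0.69 for col18a1a. All 11 compare kinds of library that also differ in year or in the used number, which cannot be told apart from the kind.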

How the results depend on the processing

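Most results kept their direction and their side of the threshold. Counts of members called moved past 1.5 times the reported count in 1 case, 4 in place of 2 from 48 to 72 hpf when the plain libraries' own set was fitted alone (3 rose, 1 fell). The number of members whose change differed between kinds moved for 6 to 15 ss (2 as reported, 4 with DESeq2, 5 with the own set alone), for 24 to 48 hpf (0 as reported, 1 with library totals and 1 with DESeq2) and for 48 to 72 hpf (1 as reported, 2 with no filter beyond 1 count in any library). For 6 ss to 96 hpf it was 8, and 12 with the own set alone or without the 20 ss libraries of set 2, a setting chosen after seeing the data, and the 8 were among the 12 in both. The cause of these shifts was not tested. With a pseudocount of 0.1 the log2 ratio of col4a1 to col4a2 from 6 ss to 96 hpf in S turned from 0.10 to -0.35 (neither passed its test). Without each 15 ss library in turn, 7 to 9 members were called from 6 to 15 ss in the plain libraries, 13 to 14 in S and 25 to 27 from 15 ss to 24 hpf. The rise in the collagen share was then 0.0306 to 0.0343, 0.0601 to 0.0637 and 0.193 to 0.196 percentage points.

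Same-numbered libraries did not deviate together (correlations from -0.025 to 0.063), so the replicate number does not pair them. With a replicate block 8, 13, 29, 22, 22, 2, 7, 0, 43 and 41 members were called in the 10 steps, against 8, 13, 28, 24, 24, 2, 7, 0, 42 and 39 without it. The block also took away the call of col22a1 from 24 to 48 hpf (2.50, adjusted p = 0.240, edgeR). Of the 6 members without a call in any step, col18a1a was called over the course in S with library totals (-1.02) and col21a1 from 48 to 72 hpf in set 2 (adjusted p = 0.0466, edgeR), col27a1b over the course in both kinds under 3 and 4 of 7 alternatives, and col28a1b in 2 steps with no filter beyond 1 count in any library. Of 120 steps of the 12 chains shown in full, 44 were called and 76 were not. Of the 76, 16 changed sign and 8 were called under at least 1 alternative. The tests of 24 to 48 and 48 to 72 hpf between sets gave no value with each set fitted alone. Depth limits col8a1a, col27a1b and col22a1, which had a count in 50, 33 and 34 libraries of all kinds.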
